A study of Homo sapiens with 6 samples.

Results

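MHC class I antigen presentation was followed through 9 genes, chosen by name from the 19198 genes of an RNA-Seq table of MCF10A cells. HLA-B, HLA-C, HLA-E and HLA-F encode class I heavy chains, B2M encodes the shared light chain, TAP1 and TAP2 encode the peptide transporter, and PSMB8 and PSMB9 encode catalytic subunits of the inducible proteasome. All 9 were listed in the table and passed the minimum mean of 10 normalized counts over the samples, which left 16988 genes for testing. MCF10A is an immortalized, non-tumorigenic human mammary epithelial cell line, labelled as luminal ductal cells from breast tissue with fibrocystic disease. The series compared 3 control samples, grown in DMEM: F12 with 5% horse serum, 10 µg/ml insulin, 20 ng/ml EGF, 100 ng/ml cholera toxin and 0.5 µg/ml hydrocortisone, with 3 growth factor-depleted samples that received the same medium and serum without these 4 agents. It asked which genes change when withdrawal of these agents moves the cells towards a mesenchymal phenotype. All 6 samples came from this 1 line, no genotype or added interferon was named for either group, and the labels give no length of depletion. The labels do not say whether the 3 samples of a group were separate cultures, so p-values measure the spread between these samples, which may be technical.

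Class I molecules carry short peptides from the cytosol to the cell surface, where CD8+ T cells and natural killer cells read them. Proteasomes cut proteins into peptides, TAP carries the peptides into the endoplasmic reticulum, and a loading complex fits them onto a heavy chain paired with beta-2-microglobulin. Nearly all nucleated cells, epithelial cells included, make these molecules, and interferons and the transactivator NLRC5 are known to raise transcription of many of the genes.

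Of the 9 genes, 4 rose in growth factor-depleted cells and 0 fell by limma, at a Benjamini-Hochberg adjusted p under 0.05 over all genes tested and a change of at least 2-fold. The 4 were HLA-B, HLA-C, HLA-F and PSMB9. Of all genes tested, 4.36% were called higher and 1.97% lower. For 6 of the 9 the depleted samples all exceeded the highest control, and for 1, TAP2, they all stayed under the lowest control, against 13.5% and 12.1% of all genes tested. At an unadjusted p under 0.05 by limma, 6 were higher and 1 was lower, beside 3400 of all 16988 genes tested in either direction. On the recovered reads edgeR called 4 higher and 0 lower, and DESeq2 called 6 higher and 0 lower. Over all 16988 genes edgeR called 971 and DESeq2 called 2112, in either direction. The median log2 fold change of the 9 genes was 1.39, beside -0.03 over all genes tested. These are bulk samples, in which fewer cells of a type and less RNA per cell cannot be told apart. Since 3 samples against 3 cannot give an exact two-sided permutation p below 0.1 for a gene taken alone, all calls rest on the fit across genes.

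**Figure D1:**
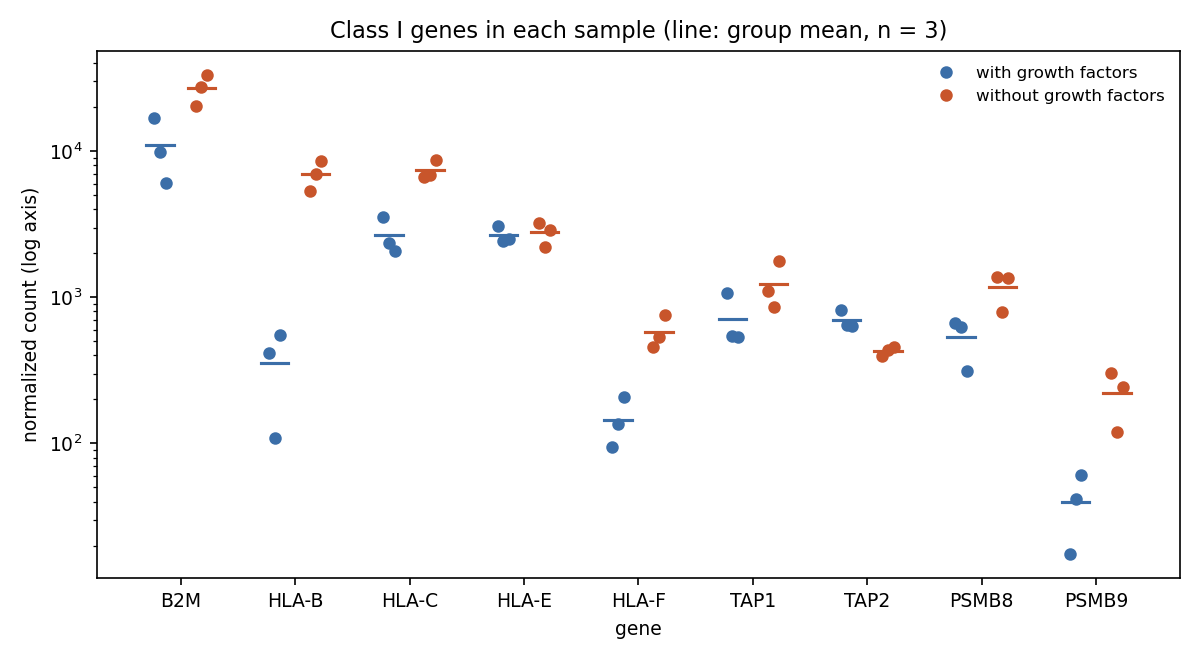
Normalized counts (log axis) of the 9 class I genes in each sample, with growth factors in blue and without in orange, and a line at each group mean of 3 samples. HLA-B shows the widest gap between the groups, the groups of HLA-E and TAP1 overlap, and the depleted samples of TAP2 lie below its controls.

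The libraries differed in depth and in coverage of short transcripts. Reads on genes ranged from 7472418 to 28672630 per sample, and 3 reads, taken as the floor, corresponded to 1.76 to 6.71 normalized counts, which covers counting error only. Across 13035 genes with a mean of 50 normalized counts or more, the log2 deviation of a sample from the mean of all 6 samples followed transcript length with a Spearman rho of 0.34 in control replicate 3 and -0.36 in control replicate 2, while the other samples lay between -0.16 and 0.25. Short transcripts therefore had low values in control replicate 3, and results on the short genes B2M, PSMB8 and PSMB9 are also given without it. All 6 mesenchymal markers tested (VIM, CDH2, FN1, COL1A1, COL1A2 and PDGFRB) were called higher in depleted cells by limma, and 5 of them by DESeq2, with a summed level of 3826 to 11315 normalized counts in controls and 114010 to 189190 in depleted cells. Markers of both mammary lineages had reads in controls, with 2442 to 8635 normalized counts of the luminal KRT8, 63.9 to 206 of the luminal ESR1, 12739 to 38503 of the basal KRT5 and 12.8 to 264 of the basal KRT14. Basal markers summed to 28906 to 60013 in controls and 21674 to 145900 in depleted cells, with TP63 called lower by limma and the other 4 of 5 not called, while DESeq2 also called KRT17 higher. Luminal markers summed to 5538 to 15566 in controls and 17240 to 29139 in depleted cells, with KRT19 called lower by limma and the other 5 of 6 not called, while DESeq2 also called ESR1 lower. Of the leukocyte markers, 3 of 6 were listed. PTPRC, which defines leukocytes, had 0 to 1.97 normalized counts in controls and 10.1 to 13.8 in depleted cells, below the minimum mean, and the sum with CD14 and LYZ was 284 to 909 in controls and 96.4 to 665 in depleted cells. Of the endothelial markers, CDH5 was called higher by limma with 4.10 to 8.77 normalized counts in controls and 25.6 to 119 in depleted cells, VWF stayed below the minimum mean, and the sum of the 3 was 100.3 to 1009 in controls and 240.0 to 1610 in depleted cells. The part of the mesenchymal, leukocyte and endothelial differences in the class I results was not tested.

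Of the 4 heavy chains, HLA-B, HLA-C and HLA-F were called and HLA-E was not. HLA-B, a classical heavy chain that presents peptides to CD8+ T cells, had 414, 108 and 549 normalized counts in control replicates 1, 2 and 3, and 5308, 6984 and 8602 in depleted replicates 1, 2 and 3. The lowest depleted sample was far above the highest control. The log2 fold change was 4.55 ± 0.57 (SE, n = 3 per group, limma adjusted p = 0.0032), a 23.4-fold difference with a 95% interval of 9.55 to 57.3. The call held in all 18 alternatives run, with a log2 fold change between 3.84 and 5.00, the lowest when control replicate 2 was left out.

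HLA-C, a classical heavy chain that natural killer cell receptors also read, had 3525, 2358 and 2087 normalized counts in controls and 6627, 6907 and 8653 in depleted cells. All 3 depleted samples lay above all 3 controls, with means of 2657 ± 764 and 7396 ± 1098 (SD, n = 3 each). The log2 fold change was 1.50 ± 0.31 (SE, limma adjusted p = 0.026), a 2.84-fold rise. This call held in 11 of 18 alternatives. It was lost without control replicate 2 (limma adjusted p = 0.087), without depleted replicate 1 (0.052), 2 (0.103) or 3 (0.137), while the log2 fold change stayed between 1.35 and 1.73 in all alternatives.

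HLA-F, a nonclassical heavy chain with a narrow tissue distribution, had 94.0, 135 and 207 normalized counts in controls and 457, 537 and 756 in depleted cells. The groups did not overlap, and the highest control had less than every depleted sample. The log2 fold change was 2.04 ± 0.39 (SE, limma adjusted p = 0.019), a 4.11-fold rise. The call held in 14 of 18 alternatives and was lost without control replicate 1 (limma adjusted p = 0.063) or 2 (0.058) and without depleted replicate 2 (0.083) or 3 (0.108).

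HLA-E is the nonclassical heavy chain that binds leader peptides of other class I proteins and is read by the NKG2A receptor of natural killer cells. It had 3054, 2438 and 2487 normalized counts in controls and 3224, 2218 and 2891 in depleted cells. The groups overlapped, and the means were 2660 ± 342 and 2778 ± 512 (SD, n = 3 each). The log2 fold change was 0.05 ± 0.28 (SE, limma adjusted p = 0.95), with a 95% interval of -0.58 to 0.69, which as a ratio runs from 0.668 to 1.61. Its sign turned under 4 alternatives, none of which called it.

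B2M, without which heavy chains do not reach the surface stably, had 16981, 9936 and 6079 normalized counts in controls and 20382, 27414 and 33374 in depleted cells. The depleted samples all lay above the controls, but control replicate 1 came close to depleted replicate 1. The log2 fold change was 1.39 ± 0.47 (SE) with a 95% interval of 0.33 to 2.46, and the limma adjusted p of 0.13 missed the threshold. DESeq2 on the recovered reads gave B2M an adjusted p of 0.029, and limma after correction for transcript length and GC content gave 0.038. With control replicate 3 left out, the B2M difference was 1.03 on the log2 scale (limma adjusted p = 0.12).

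Compared per kilobase of the canonical transcript, the order of the 4 heavy chains changed between the conditions. In controls the mean level per kb was 1723 for HLA-C, 1044 for HLA-E, 232 for HLA-B and 98.2 for HLA-F normalized counts per kb. In depleted cells it was 4796 for HLA-C, 4534 for HLA-B, 1090 for HLA-E and 394 for HLA-F, and HLA-C and HLA-B overlapped. Among all 9 genes HLA-B stood at rank 6 in controls, where it overlapped the next gene TAP2, and at rank 3 in depleted cells. B2M was the highest of the 9 in both conditions, and TAP2 moved from rank 7 to rank 9.

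**Figure D2:**
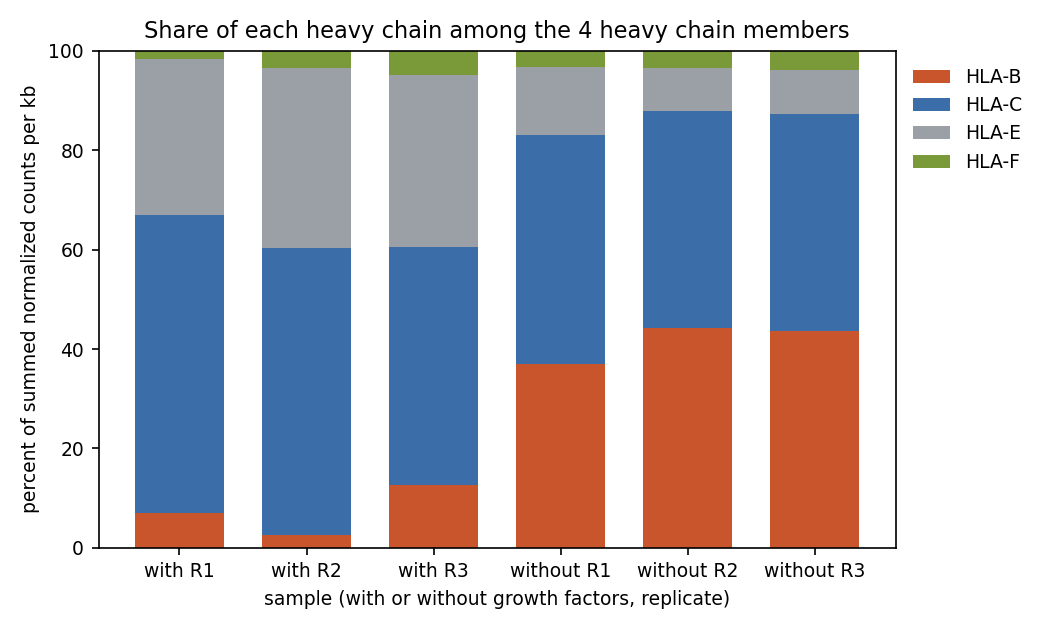
Percent of the summed normalized counts per kb of HLA-B, HLA-C, HLA-E and HLA-F taken by each gene, 1 bar per sample. The HLA-B segment covers 2.66 to 12.6% of the control bars and 37.1 to 44.3% of the depleted bars, and the HLA-E segment shrinks from 31.4 to 36.1% to 8.49 to 13.6%.

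As a share of the 4 heavy chains per kb, HLA-B took 7.05%, 2.66% and 12.6% in controls and 37.1%, 44.3% and 43.6% in depleted cells. HLA-C took 59.9%, 57.7% and 47.9% in controls and 46.1%, 43.7% and 43.6% in depleted cells, lower in every depleted sample although its own level was higher. HLA-E took 31.4%, 36.1% and 34.5% in controls and 13.6%, 8.49% and 8.83% in depleted cells, and the HLA-F shares overlapped. The sum of the 4 was 3818, 2648 and 2826 normalized counts per kb in controls and 9327, 10259 and 12857 in depleted cells, a 3.49-fold ratio of means. The B2M level per kb divided by this sum was 4.72, 3.98 and 2.28 in controls and 2.32, 2.83 and 2.75 in depleted cells, and these overlapped. The shares come from the same values as the fold changes and carry no test of their own.

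HLA-G, the heavy chain typical of the placenta, stayed below the minimum mean, with 0 to 3.76 normalized counts in controls and 5.90 to 17.9 in depleted cells. Near-identical sequence touched the heavy chain members little. No 100-base stretch of the HLA-B or HLA-F transcript recurs in a transcript of another gene, while 0.277% of those of HLA-C recur in transcripts of other genes and 0.613% of those of HLA-E in HLA-G. Reads were aligned to the reference alleles of hg38, and the HLA alleles of the line were not analysed here.

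Neither TAP subunit passed the test. TAP1 had 1063, 548 and 537 normalized counts in controls and 1097, 860 and 1762 in depleted cells. The groups overlapped, since control replicate 1 lay above depleted replicate 2, and the log2 fold change was 0.80 ± 0.39 (SE, limma adjusted p = 0.30). TAP2 had 816, 649 and 639 normalized counts in controls and 398, 435 and 454 in depleted cells, so every depleted sample lay below every control. Its log2 fold change was -0.70 ± 0.27 (SE, limma adjusted p = 0.18), under the 2-fold limit, and it was called in none of the 18 alternatives. Both subunits are needed for 1 transporter. The ratio of TAP1 to TAP2 normalized counts per kb was 2.74, 1.78 and 1.77 in controls and 5.79, 4.16 and 8.16 in depleted cells, with no overlap. Of the 100-base stretches of TAP2, 34.7% also lie in a transcript of another annotated locus that overlaps it, and how such reads were counted is not given in the sources used here.

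The inducible proteasome subunits replace constitutive ones in new proteasomes, PSMB8 in place of PSMB5, PSMB9 in place of PSMB6 and PSMB10 in place of PSMB7. PSMB9 had 17.5, 41.6 and 61.0 normalized counts in controls and 301, 120 and 241 in depleted cells. The groups did not overlap, and the log2 fold change was 2.50 ± 0.58 (SE, limma adjusted p = 0.041), a 5.66-fold rise with a 95% interval of 2.26 to 14.2. This was the least stable of the 4 calls and held in 9 of 18 alternatives. Leaving out control replicate 1 (limma adjusted p = 0.110) or 2 (0.087), or depleted replicate 1 (0.119), 2 (0.069) or 3 (0.167), ended it. Without control replicate 3 it held.

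PSMB8 had 664, 623 and 312 normalized counts in controls and 1382, 798 and 1364 in depleted cells. All depleted samples were above all controls, and the log2 fold change was 1.18 ± 0.39 (SE, limma adjusted p = 0.12), which was no call. DESeq2 on the recovered reads gave PSMB8 an adjusted p of 0.049. With control replicate 3 left out, the PSMB8 log2 fold change was 0.83 (limma adjusted p = 0.11). The ratio of PSMB8 to PSMB5 normalized counts per kb was 0.429, 0.343 and 0.608 in controls and 1.06, 0.911 and 0.980 in depleted cells, without overlap. The ratio of PSMB9 to PSMB6 per kb was 0.00897, 0.0195 and 0.110 in controls and 0.181, 0.0827 and 0.102 in depleted cells. Control replicate 3, in which PSMB6 had 450 normalized counts beside 1585 and 1729 in the other controls, put this ratio among the depleted samples.

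**Figure D3:**
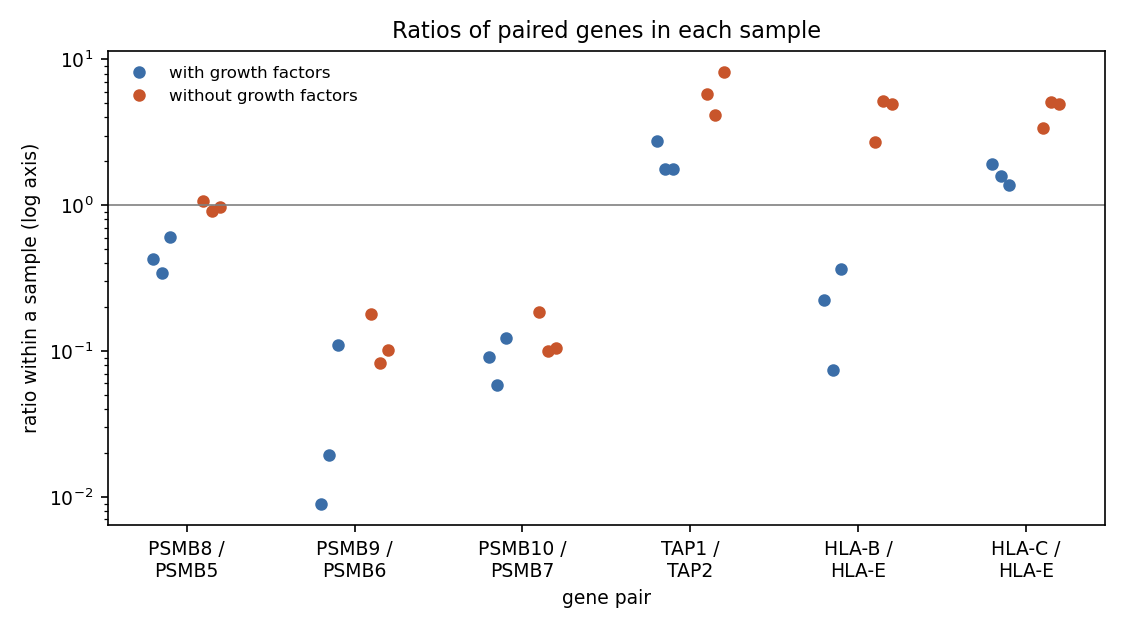
Ratios of the normalized counts per kb of 2 genes within each sample (log axis, line at 1), with growth factors in blue and without in orange. The PSMB8 to PSMB5, TAP1 to TAP2, HLA-B to HLA-E and HLA-C to HLA-E ratios do not overlap between the groups, whereas control replicate 3 of PSMB9 to PSMB6 (0.110) and of PSMB10 to PSMB7 (0.123) falls among the depleted samples.

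The constitutive partners gave no call. PSMB5 had a log2 fold change of 0.05, PSMB6 of 0.43 and PSMB7 of 0.11, and the lowest value of each was in control replicate 3. Of the 11 subunits common to both kinds of 20S proteasome 0 were called, with a median of 0.07, and the largest values were -0.44 for PSMA2 and 0.33 for PSMB4. Of 4 other parts linked to the inducible form 0 were called, with PSMB10 at 0.63 (limma adjusted p = 0.43) and PSME1, a subunit of the PA28 activator, at 0.26. At an unadjusted p under 0.05 by limma, and as calls by edgeR and DESeq2, the count was also 0 in each of these 3 lists. Limma called 4.36% of all genes tested higher and 1.97% lower, so 0 calls in lists this short do not set them apart from all genes.

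Peptide trimming and loading genes likewise gave 0 calls among 7, against the 4.36% and 1.97% of all genes. ERAP1, which trims peptides in the endoplasmic reticulum, had a log2 fold change of 1.14 ± 0.37 (SE, limma adjusted p = 0.12) and was the 1 gene of the list with an unadjusted p under 0.05 and the 1 called by DESeq2, while edgeR called 0. CANX, the chaperone calnexin, was at -0.69 (limma adjusted p = 0.47), and TAPBP, tapasin, which bridges TAP and the heavy chain, was at 0.60 (limma adjusted p = 0.35). The median of the list was 0.03.

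**Figure D4:**
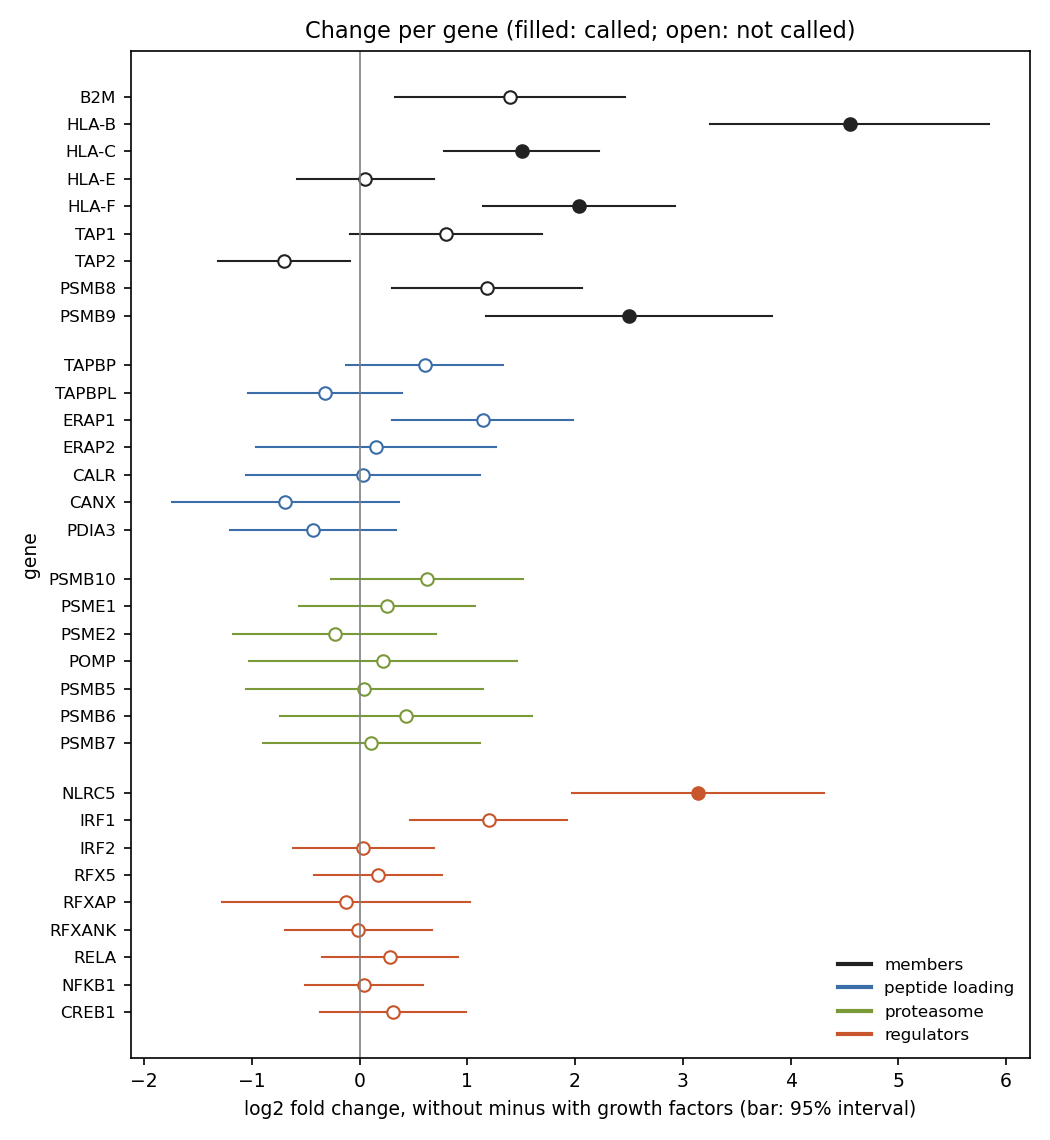
Log2 fold change (without minus with growth factors) and 95% interval for the 9 members, the peptide loading genes, proteasome genes and regulators of class I transcription, with filled points for genes called by limma. Filled points stand at 4.55 for HLA-B, 2.04 for HLA-F, 1.50 for HLA-C, 2.50 for PSMB9 and 3.14 for NLRC5, and the other points are open.

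Of 10 regulators of class I transcription, NLRC5 was the 1 called by limma and by edgeR, and DESeq2 called IRF1 besides. For this list and the next, the shares of all genes called by limma were 4.36% higher and 1.97% lower. NLRC5, the transactivator that acts at class I promoters, had 76.4, 66.2 and 252 normalized counts in controls and 772, 1120 and 1044 in depleted cells. Its groups were well apart, and the log2 fold change was 3.14 ± 0.51 (SE, limma adjusted p = 0.0093), a call that held in 17 of 18 alternatives and was lost without depleted replicate 2 (limma adjusted p = 0.052). IRF1, an interferon-induced activator, had 385, 557 and 776 normalized counts in controls and 1336, 1118 and 1348 in depleted cells, a log2 fold change of 1.20 ± 0.32 (SE, limma adjusted p = 0.067). IRF2, RFX5, RFXAP, RFXANK, RELA, NFKB1 and CREB1 lay between -0.12 and 0.31 on the log2 scale. Among 9 interferon receptor and signalling genes 0 were called by limma or edgeR and 1, STAT2, by DESeq2. STAT2 was at 1.25 (limma adjusted p = 0.055) and IFNGR1, a chain of the interferon gamma receptor, at -0.89 (limma adjusted p = 0.16), and these were the 1 higher and 1 lower gene at an unadjusted p under 0.05.

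Of 18 interferon-stimulated genes 15 were listed, all but MX2, RSAD2 and CXCL10. Among these 15, limma and edgeR each called 7 higher and 0 lower, and DESeq2 called 8 higher and 0 lower. Over all 16988 genes tested limma called 4.36% higher and 1.97% lower. In either direction edgeR called 971 of them and DESeq2 2112. The median of the list was 1.89 on the log2 scale, and leaving out 1 sample at a time left 3 to 8 limma calls. IFI6 was at 4.16, IFIT3 at 2.88, IFIT1 at 3.53 and GBP1 at 2.70 (limma adjusted p of 0.0041, 0.0065, 0.0069 and 0.016), while OAS1 was at -0.02.

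**Figure D5:**
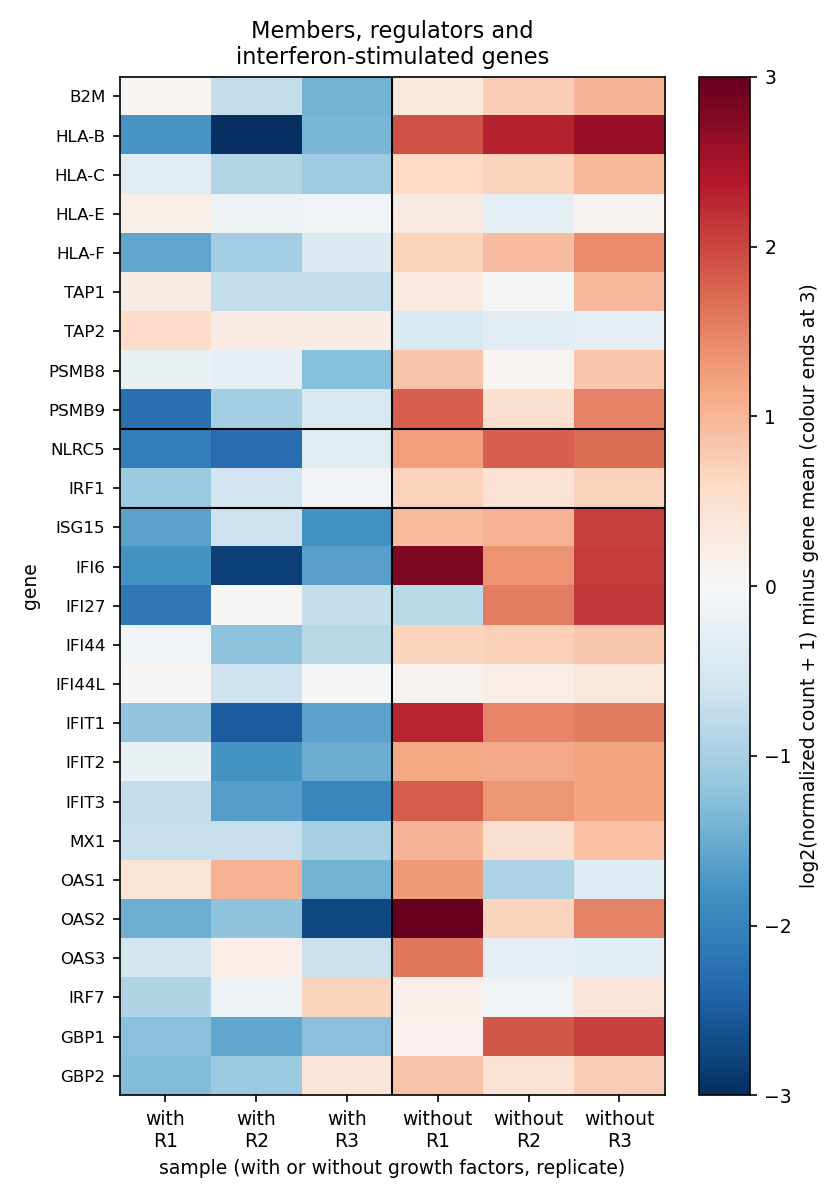
Log2(normalized count + 1) minus the mean of the gene over the 6 samples, for the 9 members, 2 regulators and 15 interferon-stimulated genes, with red above and blue below the gene mean. HLA-B and NLRC5 are blue in all controls and red in all depleted samples, HLA-E stays pale, and TAP2 runs the other way.

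Among 8 class I-like genes and ligands of the NKG2D receptor, 1 was called by limma and by DESeq2, and edgeR called 0. Limma called 4.36% of all genes tested higher and 1.97% lower. The called gene was FCGRT, the neonatal Fc receptor heavy chain, which also pairs with beta-2-microglobulin. FCGRT had 7.52, 11.7 and 52.1 normalized counts in controls and 197, 127 and 130 in depleted cells, a log2 fold change of 3.05 ± 0.70 (SE, limma adjusted p = 0.040). The call held in 8 of 18 alternatives, and leaving out any 1 sample other than control replicate 3 ended it, with limma adjusted p between 0.110 and 0.128. Of the class II genes, which present peptides from outside the cell, 4 of 10 were listed and HLA-DMA alone reached the minimum mean. HLA-DMA, which helps load class II molecules, had 33.8, 41.6 and 134 normalized counts in controls and 29.3, 16.4 and 13.4 in depleted cells, a log2 fold change of -1.57 ± 0.65 (SE, limma adjusted p = 0.22).

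Of the 9 genes, 8 lie on chromosome 6 and B2M lies on chromosome 15. By Gencode on hg38 HLA-F lies at chr6:29722775-29738528 and HLA-E at chr6:30489509-30494194, both on the plus strand, while HLA-C at chr6:31268749-31272130 and HLA-B at chr6:31353872-31367067 lie on the minus strand. TAP2 (chr6:32821833-32838739), PSMB8 (chr6:32840717-32844679) and TAP1 (chr6:32845209-32853816), on the minus strand, and PSMB9 (chr6:32844136-32859851), on the plus strand, form 1 cluster. B2M lies at chr15:44711358-44718851 on the plus strand. Differences between the genes of this cluster were not tested. In Gencode v44 the annotated span of PSMB9, introns included, overlaps that of TAP1 by 8608 bases and that of PSMB8 by 544 bases on the opposite strand. The reads were counted on Gencode v22, and overlap of exons there was not examined. PSMB8-AS1, a transcript antisense to PSMB8, had 12.5, 14.6 and 49.2 normalized counts in controls and 125, 69.5 and 89.4 in depleted cells. The libraries were strand-specific, but the strand setting of the counting is not given in the sources used here, so reads of genes that overlap on opposite strands may not have been told apart. The annotated span of PSMB8-AS1 also overlaps that of PSMB9 by 2365 bases on the same strand, where strand cannot separate reads. The part of this overlap in the PSMB9 counts was not tested.

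The 250 bases before the RefSeq transcription start (GRCh38.p14) are shown for the called heavy chains, for B2M and for PSMB9. Some matches of HLA-B, HLA-C and HLA-F lie at nearly the same distances from the start, and B2M and PSMB9 hold theirs elsewhere. The sequences run 5′ to 3′ on the strand of the gene, and capitals mark matches, on either strand, to GAAANNGAA (an interferon-response type motif), GGGNNTTCC (an NF-kappaB type motif), CCAAT or TGACG (the core of cAMP response elements).
HLA-B (chr6:31357180-31357429, minus strand): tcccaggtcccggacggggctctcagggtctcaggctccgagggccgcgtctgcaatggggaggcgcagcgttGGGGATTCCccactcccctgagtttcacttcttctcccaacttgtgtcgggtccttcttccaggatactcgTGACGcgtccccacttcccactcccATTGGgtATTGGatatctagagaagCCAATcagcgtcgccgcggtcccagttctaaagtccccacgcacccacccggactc
HLA-C (chr6:31272093-31272342, minus strand): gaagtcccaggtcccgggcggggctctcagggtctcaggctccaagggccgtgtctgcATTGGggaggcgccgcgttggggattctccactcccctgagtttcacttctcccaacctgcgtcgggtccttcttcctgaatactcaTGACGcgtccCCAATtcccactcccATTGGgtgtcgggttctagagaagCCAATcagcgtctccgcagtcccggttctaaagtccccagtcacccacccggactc
HLA-F (chr6:29723184-29723433, plus strand): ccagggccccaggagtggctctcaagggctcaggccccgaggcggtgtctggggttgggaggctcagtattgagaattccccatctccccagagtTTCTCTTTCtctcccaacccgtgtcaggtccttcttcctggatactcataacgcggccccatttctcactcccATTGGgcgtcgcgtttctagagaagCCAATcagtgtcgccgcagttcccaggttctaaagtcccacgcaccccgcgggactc
B2M (chr15:44711267-44711516, plus strand): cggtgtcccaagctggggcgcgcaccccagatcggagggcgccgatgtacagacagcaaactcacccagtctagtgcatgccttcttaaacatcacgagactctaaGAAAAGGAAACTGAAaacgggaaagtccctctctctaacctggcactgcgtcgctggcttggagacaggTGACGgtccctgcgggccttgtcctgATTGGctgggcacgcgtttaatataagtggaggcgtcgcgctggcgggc
PSMB9 (chr6:32853942-32854191, plus strand): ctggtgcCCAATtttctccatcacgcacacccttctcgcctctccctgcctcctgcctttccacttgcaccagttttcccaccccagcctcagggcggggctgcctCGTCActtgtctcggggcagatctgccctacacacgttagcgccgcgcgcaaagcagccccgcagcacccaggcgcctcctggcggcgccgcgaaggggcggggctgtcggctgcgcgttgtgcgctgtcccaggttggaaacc

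In HLA-B and HLA-C a CCAAT match on the coding strand lay at -56 to -52, counted from the base before the start, and in HLA-F at -57 to -53. A match to CCAAT on the other strand lay at -81 to -77 in HLA-B, -80 to -76 in HLA-C and -82 to -78 in HLA-F. Further CCAAT matches did not line up. These lay on the other strand at -74 to -70 in HLA-B and -192 to -188 in HLA-C, and on the coding strand at -95 to -91 in HLA-C. TGACG lay at -106 to -102 in HLA-B and -105 to -101 in HLA-C, and HLA-F has no match to it in this window. Of the 3, HLA-B alone held an exact match to GGGNNTTCC, at -177 to -169, and HLA-F alone to GAAANNGAA, at -155 to -147. Near-matches were not counted, and the HLA-C and HLA-F windows hold near-matches to GGGNNTTCC close to the HLA-B site. B2M held overlapping matches to GAAANNGAA at -144 to -136 and -138 to -130, while PSMB9 held a CCAAT at -243 to -239 and a TGACG on the other strand at -144 to -140.

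A window was found for 8 of the 9 genes, all but HLA-E. Of these 8, GAAANNGAA matched in 4 (HLA-F, B2M, TAP1 and TAP2), GGGNNTTCC in 2 (HLA-B and PSMB8), CCAAT in 6 and TGACG in 5. Over all 35116 windows of this length the shares were 6.88%, 5.78%, 32.0% and 21.2%. GAAANNGAA was matched in 1 of the 4 called genes (HLA-F) and in 3 of the other 4 genes with a window, TAP2 among them. Only exact matches were sought, so genes without a match may hold variants of these motifs. The part of these motifs in the changes was not tested. TAP1 and PSMB9 run in opposite directions with 487 bases between their starts, so their windows share 13 bases. The TAP1 matches to GAAANNGAA, at -133 to -125 and -127 to -119, lie between these starts but outside the PSMB9 window.

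The 9 genes were averaged to 1 profile over the 6 samples. Among genes outside the lists whose mean reached 100 normalized counts, those most like this profile were MAGED2 (Pearson r = 0.995), TCTA (0.992), RNU4-2 (0.990), BORCS6 (0.989) and BRF2 (0.977). The profile does not stand for each of the 9 genes. TAP2 ran against it (r = -0.72) and HLA-E followed it loosely (0.51), while the other members lay between 0.75 and 0.96. The profile gives each gene equal weight, and the 6 points share their libraries and depth. Each member also forms part of the profile that its r is taken against. The 5 genes were picked for the highest r over 6 points, so high values come with the choice. MAGED2, a member of the MAGE family, had 1463, 886 and 852 normalized counts in controls and 2536, 1772 and 2799 in depleted cells. Its depleted samples were all above its controls, and their log2 fold change was 1.17 (limma adjusted p = 0.074). Of the 5 genes, RNU4-2, a spliceosomal RNA, alone was called, with a difference of 2.73 on the log2 scale (limma adjusted p = 0.039).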

How the data were processed

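RNA-Seq of 3 control and 3 growth factor-depleted MCF10A samples was analysed, grouped by the labels, which list 3 samples per condition where the design text gives 2. Per the labels and the study's methods, the authors made strand-specific libraries from total RNA depleted of ribosomal RNA, sequenced single-end reads of 100 bases, trimmed them with cutadapt 1.6, aligned them with TopHat2 (hg38), counted reads per Gencode v22 gene with HTSeq 0.6 and scaled the counts by size factors of DESeq2 1.8.1. The deposited signal is thus a normalized count per gene, not divided by length, so genes were ranked by level only per kb. Ratios of 2 genes within a sample were also taken per kb of the canonical transcript. In each sample 100% of the values were whole multiples of 1 read within 0.01 reads, which allowed count models on recovered reads. No column was left unmapped. Gencode v44 names 18913 of the 19198 genes.

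Differences were tested with limma 3.58.1 (R 4.3.3, trend) on log2(normalized count + 1), for genes with a mean of at least 10. Calls needed a Benjamini-Hochberg adjusted p below 0.05 over all genes and at least a 2-fold change. Fold changes are on this scale and understate changes of low genes. Intervals are 95%. Named genes were all 9 members, up to 4 called genes of each related list by adjusted p, the 2 largest changes of lists without calls, further class I genes and regulators (HLA-G, TAPBP, PSMB10, PSMB5, PSMB6, PSMB7, NLRC5, IRF1 and HLA-DMA) and the 5 genes most like the mean profile. Further genes that the rule names are not reported here. Overlapping or antisense neighbours and values at the ends of ranges were named after their values were seen. The members and lists were chosen with earlier results of these data known. The 18 alternatives were other pseudocounts (0.5 and 10), filters and scalings, no trend, the replicate block, each sample left out, correction for length and GC content, edgeR 4.0.16 and DESeq2 1.42.0. The procedure was tested on simulated data. Figures used Python 3.11.15, pandas 2.3.3 and matplotlib 3.10.9.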

Additional observations from a re-analysis of the deposited data

How the results depend on the processing

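The number of the 9 genes called higher stayed at 4 with pseudocounts of 0.5 and 10, no filter or a mean of at least 50, rescaling to 1 total, quantile normalization, edgeR and the length and GC correction, which called B2M in place of PSMB9. It was 2 (HLA-B and HLA-F) without the trend, with the replicate block, and with the length and GC correction together with the replicate block, and 6 by DESeq2. Leaving out 1 sample at a time gave 1 to 4, with HLA-B called each time. None of the 9 was called lower in any alternative. Over all genes, limma called 1076, limma with the replicate block 967, edgeR 971 and DESeq2 2112, and leaving out 1 sample gave 453 (depleted replicate 2) to 2474 (control replicate 3). Residuals of same-numbered samples correlated at -0.07, -0.28 and -0.32 and those of other pairs at up to 0.29. No sample correlated best with its own number. These residuals may also carry the trend with transcript length, so they cannot decide whether replicate numbers pair the samples. The interferon-stimulated genes called were 7, and 3 to 8 with 1 sample left out. The HLA-E log2 fold change turned to -0.073 after the length and GC correction, with and without the replicate block, and ran from -0.063 to 0.206 with 1 sample left out. The causes of these shifts were not tested. The median log2 fold change of all genes stayed between -0.10 and 0.02. Levels under the floor of 3 reads could not be compared.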
